A study of Mus musculus with 10 samples.

Results

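The mouse lens labelled Klf4CN was compared between the embryo and the young adult. Klf4CN is the submitters' name for mice with a conditional null allele of Klf4, a zinc finger transcription factor. Whole lenses were taken at embryonic day 16.5 (E16.5) or at 56 days after birth (PN56), and one Affymetrix mouse expression array was hybridised for each RNA preparation. The comparison used 5 of the 10 arrays of the series: 3 of E16.5 lenses, each pooled from 5 embryos, and 2 of PN56 lenses, each pooled from 3 young adults. The labels call the preparations independent, and p-values here measure the spread between such pooled preparations. All 5 arrays carry the same genotype label, so age was the only labelled difference, together with the number of animals pooled. The Cre line, the strain and the sex of the mice were not given in the sources used here. The 5 arrays of wild-type lens gave the fit a shared estimate of spread. They also counted in the mean signals that chose the probe set of each gene and the genes bright enough to test. No genotype was compared beyond the check of Klf4 given below. The members were all genes read by at least 1 probe set with a single gene symbol, of which 13444 of 18193 were bright enough to test.

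The lens is built from an epithelium that divides and from fibre cells that stop dividing, elongate and lose their organelles. Fibre cells fill with crystallins, the soluble proteins that give the lens its refractive power, and carry a cytoskeleton of their own, the beaded filament. A thick basement membrane, the capsule, encloses the organ. In the embryo a net of hyaloid vessels with its endothelium and macrophages covers the lens, and this net is lost after birth. New fibres are added throughout life, so that the adult lens holds a much larger mass of mature fibres than the embryonic one.

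Deposited signals were linear intensities that had been scaled so that the trimmed mean of each array was 500. Genes were tested as log2(signal + 16), and a change is PN56 minus E16.5 on that scale, given with its standard error. "Rose" and "fell" are used only of genes past a Benjamini-Hochberg adjusted p of 0.05 in limma over all 13444 genes. Log2 signals of the tested genes correlated at 0.9746 to 0.9807 among the E16.5 arrays and at 0.9561 between the PN56 arrays, against 0.8133 to 0.8321 across ages. Median signals were 69.4 to 76.9 at E16.5 and 91 and 101.8 at PN56. Poly-A control RNAs, which are added to a sample before amplification, were seen at E16.5 and were near background at PN56 (dap, 6128, 6305 and 5479 against 41 and 59.1), so age and preparation cannot be told apart. The 9 hybridisation spike probe sets, which report material added after amplification, were higher at PN56 by 0.49 on average on the log2 scale, from -0.01 for one bioC probe set to 0.92 for one cre probe set. The cre spikes, the ones with the highest signals, were 0.92 and 0.75 higher, so a bright gene with a change below 0.92 moved no more than a spike.

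Klf4, the targeted gene, gave signals of 1360, 805 and 1072 at E16.5 and 732 and 702 at PN56 on the arrays labelled Klf4CN. The groups did not overlap, but the change of -0.55 ± 0.31 did not pass the test (limma adjusted p = 0.155), and the other Klf4 probe set gave -0.62. It passed after median centring (-0.89, adjusted p = 0.0283) and after spike scaling (-1.04, adjusted p = 0.0154). On the wild-type arrays the same probe set read 775, 1015 and 428 at E16.5 and 157 and 214 at PN56. At PN56 the Klf4 signal was thus not lower under the Klf4CN label, a comparison made only to check the labels. Whether these probe sets read the deleted stretch of Klf4 is not given in the sources used here, and if they do not, these signals check no label. Every result below is therefore one of lenses labelled Klf4CN.

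Most genes differed between the ages. Of the 13444 genes, 3003 rose and 4137 fell, which is 22.3% and 30.8% of those tested and 53.1% together. All counts of list members below stand beside these shares. The 2 PN56 arrays both lay above all 3 E16.5 arrays for 31.3% of genes and below them all for 39.2%. Among genes past the test, 1656 rose and 2230 fell by at least 1 on the log2 scale. The median change over all tested genes was -0.10 with the deposited scaling, -0.13 after quantile normalization, -0.44 when each array was centred on its median and -0.59 when arrays were scaled to the hybridisation spikes. Rises made up 42.1% of the called genes with the deposited scaling, 41.1% after quantile normalization, 23.4% after median centring and 17.9% after spike scaling. The direction of a small change in a bright gene therefore depends on the scaling. Most named genes whose direction turned or whose call was lost are marked as they appear, though not for every alternative.

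**Figure D1:**
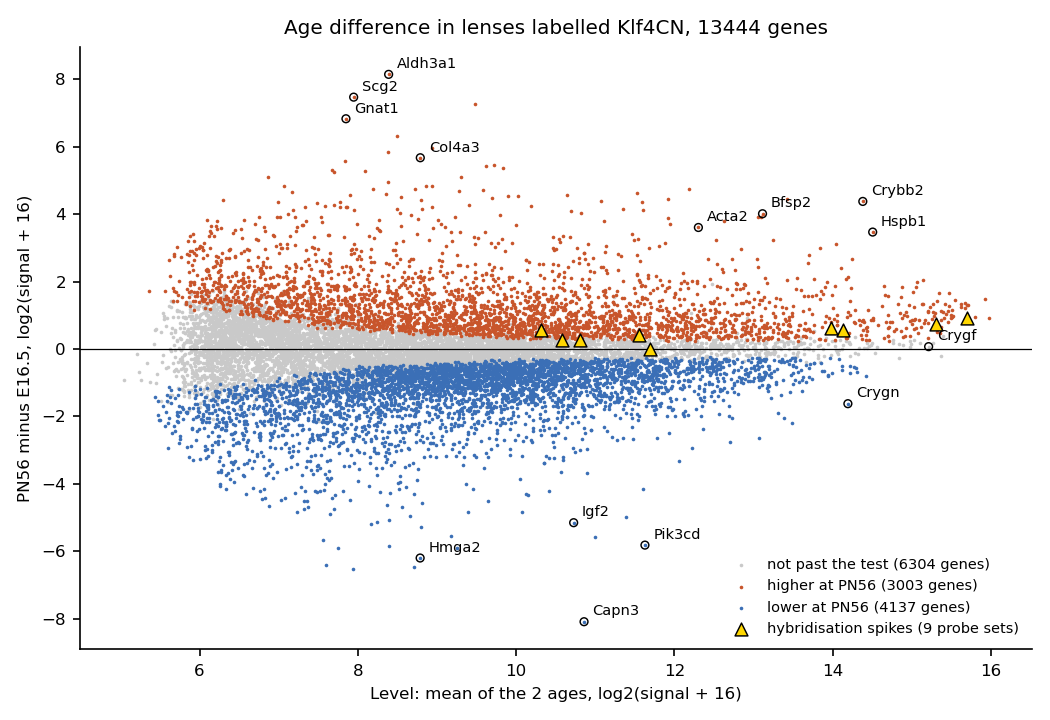
Change with age (PN56 minus E16.5, log2(signal + 16), vertical axis) against level (mean of both ages on the same scale, horizontal axis) for each of 13444 genes, coloured by test result, with the 9 hybridisation spike probe sets as triangles. Capn3 lies lowest at -8.09 and Aldh3a1 highest at 8.15, and the brightest spikes lie near 0.9, among many bright genes.

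Capn3 had the largest fall of all tested genes. It encodes calpain 3, a calcium-activated protease, of which rodent lens is known to make a form of its own from an alternative first exon. Its signals were 31255, 31036 and 29663 at E16.5 and 95.4 and 97.2 at PN56. The E16.5 arrays were all high and the PN56 arrays both close to background, a change of -8.09 ± 0.16 (limma adjusted p = 1.87e-11). The second Capn3 probe set read 18161, 16071 and 21954 at E16.5 and 106 and 46.6 at PN56, a change of -7.73. Of the calpain genes, Capn2, a ubiquitous calpain, rose from 1770, 1652 and 1909 to 4020 and 3242. Cast, which encodes the calpain inhibitor calpastatin, rose from 439, 461 and 436 to 2062 and 1576, a change of 1.98 ± 0.18. The shared small subunit Capns1 rose by 0.85, a call lost after spike scaling (0.36). Among the 9 genes of calpains and calpastatin, 3 rose (33.3%), 4 fell (44.4%) and 2 did not pass. Over all tested genes 22.3% rose and 30.8% fell. Capn1, Capn5 and Capn10 fell (-1.44, -1.22 and -1.59), but Capn1 lost its call when any one of the 5 arrays labelled Klf4CN was left out, and for Capn5 and Capn10 another probe set above the filter moved the opposite way.

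The other large falls included genes of blood vessels, blood and embryonic growth. Cd34, a sialomucin of endothelial and progenitor cells, went from 2405, 1761 and 3044 to 2.4 and 19.3. Aplnr, the apelin receptor of endothelium, went from 1726, 1301 and 2021 to 22.3 and 4, and Cd93, an endothelial surface receptor, from 2550, 1771 and 3602 to 5.2 and 77.3. All 3 were clearly present on every E16.5 array and near background on both PN56 arrays. Cyyr1 (-6.48) and Gask1b (-5.90) fell as much, as did the globin genes Hbb-y (-6.42) and Hbb-b2 (-5.67). Hmga2, a chromatin protein of embryonic and dividing cells, read 4206, 3623 and 3525 at E16.5 and 72.2 and 14 at PN56, a change of -6.20 ± 0.47. Fscn1, which encodes the actin-bundling protein fascin, read 15350, 13116 and 14200 at E16.5 and 406 and 191 at PN56. Rian, a maternally expressed noncoding RNA of an imprinted region, read 4617, 3364 and 3953 at E16.5 and 66.4 and 69.7 at PN56. These 3 were bright on every embryonic array and the ages were far apart. The fall of Pik3cd, which encodes a catalytic subunit of PI3 kinase, rests on 1 probe set (26444, 20031 and 25315 at E16.5 and 352 and 465 at PN56). The other 5 Pik3cd probe sets were dim at both ages, none above 137 on any of the 5 arrays, and their changes ran from -0.11 to 1.4. Sizes for Cd34, Hbb-y, Aplnr and Hbb-b2 depend on the offset, since their PN56 mean lay below 16. Those of other genes dim at PN56 moved with it too. For offsets of 1 and 64 Cyyr1 read -7.6 and -5.3, Cd93 -6.85 and -4.72 and Hmga2 -6.83 and -5.22. All 15 endothelial markers fell alongside these genes, from summed signals of 8769 to 13936 to 1137 and 1350.

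The largest rise was that of Aldh3a1, an aldehyde dehydrogenase that is abundant in the mouse cornea. Its signals were 4, 4.1 and 3.6 at E16.5 and 6376 and 4964 at PN56, a change of 8.15 ± 0.23 (limma adjusted p = 2.82e-10). It was at background on every E16.5 array and high on both PN56 arrays, and the size ran from 6.39 to 10.17 for offsets of 64 and 1. Krt12, the keratin that marks corneal epithelium, was under the brightness filter. It read 1.6, 24.1 and 37.5 at E16.5 and 48.4 and 73.8 at PN56 on the brighter of its 2 probe sets. Other corneal markers are given below with the cells around the lens, and a corneal part in the Aldh3a1 signal was not tested. Scg2, which encodes a secretory granule protein, read 1.2, 2.1 and 4.4 at E16.5 and 3372 and 3169 at PN56. Tinag, a basement membrane glycoprotein, read 39, 33.2 and 53.8 at E16.5 and 8503 and 9326 at PN56. In Aldh3a1, Scg2 and Tinag both PN56 arrays stood far above every E16.5 array, and the size for Scg2, like that for Aldh3a1, depends on the offset. Aqp5, a water channel, rose from 24, 43.6 and 85 to 4149 and 3570, and Il33, a cytokine kept in the nucleus, from 18.3, 36.3 and 31.5 to 2772 and 2290. Nfix, a nuclear factor I transcription factor, rose from 77.3, 192 and 90.4 to 5952 and 5188. Neat1, the noncoding RNA that builds paraspeckles, rose from 199, 58.9 and 165 to 5875 and 5828. All 4 were low on the 3 embryonic arrays and similar on the 2 adult ones. The remaining large rises were those of Fam107a (6.32), Col4a3 (5.67), the small proteoglycan Fmod (5.58) and Efemp1, a fibulin (5.43). For offsets of 64 and 1 Fam107a read 5.18 and 7.14, Fmod 4.29 and 6.86 and Il33 4.81 and 6.46. Gnat1, the rod transducin subunit, also rose (6.83, or 5.18 and 8.58 for offsets of 64 and 1) and is described with the photoreceptor markers.

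All 8 alpha and beta crystallin genes rose, with a median change of 1.66 against -0.10 over all tested genes and a rise in 22.3% of them. Crybb2, a beta crystallin known for its late onset in the lens, changed most. Its signals were 3982, 4534 and 5613 at E16.5 and 95166 and 99263 at PN56, a 20.6-fold ratio of the means and a log2 change of 4.38 ± 0.20 (limma adjusted p = 1.07e-08). The ages were far apart, and the PN56 arrays lay close together. Crybb1 read 18707, 19677 and 14929 at E16.5 and 73113 and 73934 at PN56. Cryaa, which encodes alpha A crystallin, a small chaperone, read 18603, 20669 and 15227 at E16.5 and 64425 and 63472 at PN56, a change of 1.83 ± 0.12. Crybb3 (1.66), Cryba1 (1.65) and Cryba2 (1.43) rose by similar amounts. These 6 genes rose under each of the 4 scalings. Cryab (49183, 45069 and 46533 at E16.5 and 85263 and 90878 at PN56) and Cryba4 (34094, 36037 and 30705 at E16.5 and 64062 and 65994 at PN56) rose by 0.91 and 0.95, as much as the cre spikes, and after quantile normalization their changes were -0.21 and -0.15. After quantile normalization 6 of 8 rose and Cryab fell, and 8 of 8 rose after centring or spike scaling.

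The gamma crystallin genes, which fibre cells switch on as they differentiate, did not move together. Crygb, Crygd and Crygs rose by 1.38, 1.30 and 1.30, of which Crygd was not called after quantile normalization (0.24). Crygs, for example, read 34159, 35151 and 33648 at E16.5 and 84894 and 83739 at PN56. Crygf stood at 36872, 40041 and 34439 at E16.5 and 37306 and 40460 at PN56, with the ages overlapping and a change of 0.07 ± 0.11 (limma adjusted p = 0.629), but it fell after quantile normalization (-1.06) and spike scaling (-0.42). Crygn, a divergent member of the family, fell from 33050, 34605 and 30949 to 8904 and 12725, a change of -1.62 ± 0.15. Cryga rose by 0.38 with the deposited scaling, but its change was -0.28 after quantile normalization and -0.10 after spike scaling. Its call was lost after median centring (0.04) and without E16.5 replicate 1 or E16.5 replicate 3. Without PN56 replicate 2 its change was 0.17. In all, 4 of 6 rose and 1 fell, and the median of 0.84 became -0.04 after quantile normalization, with 2 rises and 2 falls. Crygc shares its probe set with Crygb in the annotation used and was not analysed here.

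**Figure D2:**
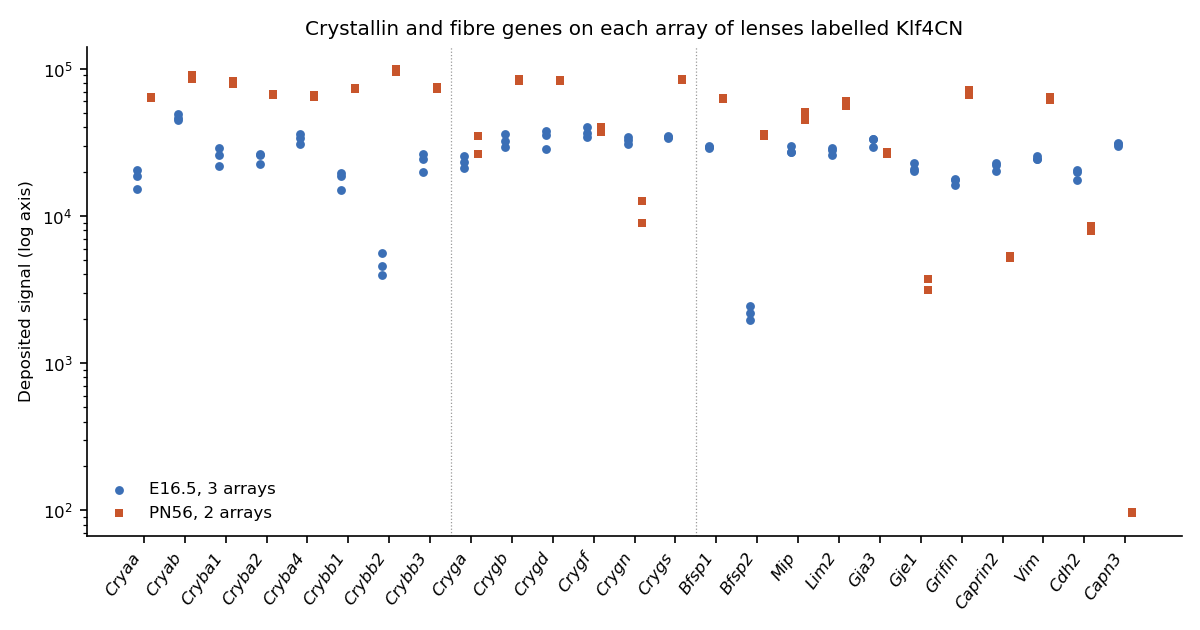
Deposited signal (log axis) on each of the 5 arrays for 14 crystallin genes, 10 fibre genes and Capn3, with E16.5 as circles and PN56 as squares. Crybb2 and Bfsp2 are far higher at PN56, most other crystallins rose from an already high signal (Cryab, Cryba4 and Cryga turn after quantile normalization), Crygf overlaps between ages with the deposited scaling, and Capn3 is under 100 on both PN56 arrays.

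The sequence upstream of these genes was examined because MAF proteins, here represented by Maf, drive many crystallin genes through Maf response elements. TGCTGAC is only a part of such an element, and whole elements were not searched for. TGCTGAC was searched on both strands of the 250 bases before each start in RefSeq (build GRCm38.p6). It occurred before 5 of the 14 crystallin genes with a listed start, Crygc included (35.7%), against 3.81% of all 32851 such windows. The 5 were Cryaa, Cryba1, Cryba4, Crybb1 and Cryga. It was not found before Crybb2, the crystallin with the largest rise, nor before Crygf and Crygn, and Cryab had no entry. Capn3, which fell to background, has 2 listed starts, and TGCTGAC stands before the downstream one. The core CACCC of a Kruppel-like factor site occurred before 6 of the 14 crystallin genes (42.9%) and in 52% of all windows. The motifs were counted separately, and overlapping matches counted for both. The following stretches hold the 150 bases before the start, 5′ to 3′ on the strand of the gene, with TGCTGAC in capitals. They lie at chr17:31677781-31677930 (Cryaa, plus strand), chr5:112255670-112255819 (Crybb1, plus), chr11:77725294-77725443 (Cryba1, minus), chr5:112252519-112252668 (Cryba4, minus), chr5:113070118-113070267 (Crybb2, minus), chr2:120463443-120463592 (Capn3, upstream start, plus) and chr2:120476759-120476908 (Capn3, downstream start, plus).
Cryaa: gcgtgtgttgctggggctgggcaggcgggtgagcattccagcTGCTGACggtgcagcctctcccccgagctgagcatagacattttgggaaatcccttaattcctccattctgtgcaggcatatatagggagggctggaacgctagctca
Crybb1: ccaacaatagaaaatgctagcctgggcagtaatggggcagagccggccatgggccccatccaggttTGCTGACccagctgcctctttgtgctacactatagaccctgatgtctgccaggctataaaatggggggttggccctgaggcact
Cryba1: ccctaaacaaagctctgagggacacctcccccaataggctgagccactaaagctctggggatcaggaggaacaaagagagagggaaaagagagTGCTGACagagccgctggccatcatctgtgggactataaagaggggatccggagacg
Cryba4: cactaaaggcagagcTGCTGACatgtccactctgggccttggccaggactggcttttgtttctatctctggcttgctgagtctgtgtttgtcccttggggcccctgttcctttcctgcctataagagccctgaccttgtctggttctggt
Crybb2: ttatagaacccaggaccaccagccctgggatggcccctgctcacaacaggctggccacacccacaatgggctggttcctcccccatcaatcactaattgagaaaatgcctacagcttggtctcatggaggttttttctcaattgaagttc
Capn3, upstream start: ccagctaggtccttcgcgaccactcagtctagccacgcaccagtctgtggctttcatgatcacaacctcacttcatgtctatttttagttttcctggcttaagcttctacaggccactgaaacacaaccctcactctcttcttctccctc
Capn3, downstream start: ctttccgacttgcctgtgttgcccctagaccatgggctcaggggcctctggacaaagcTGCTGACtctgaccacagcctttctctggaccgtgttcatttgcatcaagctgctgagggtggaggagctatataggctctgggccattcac

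Counting the base before the start as -1, TGCTGAC began at -108 in Cryaa, -84 in Crybb1 and -57 in Cryba1. Before the downstream Capn3 start it began at -92. Cryba4 held it at -182 and -135, of which the stretch shown covers the latter. Crybb1 and Cryba4, which lie next to each other on chromosome 5 and point away from each other, both hold it and rose by 2.06 and 0.95. The letters thus stood before crystallin genes that rose and before Capn3, the gene with the largest fall. Maf itself fell from 24972, 21850 and 25073 to 19034 and 14099, a change of -0.55 ± 0.12, with the ages apart, and 1 of its 5 other probe sets moved the opposite way. A match is only a stretch of letters, and binding was not measured.

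Fibre genes outside the crystallins mostly rose, though several strongly expressed ones fell. Of 17 tested beaded filament and fibre membrane genes, 11 rose (64.7%) and 5 fell (29.4%), against 22.3% and 30.8% of all genes. Their median was 0.70 (7 rose and 7 fell after quantile normalization, with a median of 0.11). Bfsp2, which encodes the beaded filament protein phakinin, rose from 1968, 2196 and 2430 to 35067 and 36079, a change of 4.01 ± 0.10 (limma adjusted p = 1.2e-10). Its partner Bfsp1, filensin, was already at 30065, 29330 and 28896 at E16.5 and rose by 1.09 to 62711 and 63081, a rise not called after quantile normalization (0.11). The spread between arrays of an age was small beside these differences. Grifin, a galectin-related lens protein, rose from 17879, 16295 and 17461 to 65860 and 71544. Vim, the vimentin gene, rose by 1.35, and Mip, which encodes the fibre water channel aquaporin 0, by 0.77. Mip read -0.14 after quantile normalization and was not called after spike scaling (0.28). Gje1, a lens connexin, fell from 22838, 20230 and 20855 to 3155 and 3714, a change of -2.63 ± 0.11. Caprin2, an RNA-binding protein of differentiating fibres, fell from 22984, 20243 and 22278 to 5327 and 5181, and Cdh2, N-cadherin, from 19814, 17581 and 20455 to 8483 and 7867. In all 3 the ages were well apart on every array. Gja3, connexin 46, read 33472, 29504 and 33428 at E16.5 and 27029 and 26510 at PN56 and did not pass the test (limma adjusted p = 0.0545). It fell when E16.5 replicate 2 was left out and under the 3 other scalings, while the mean of its probe sets rose by 0.93.

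Genes tied to the loss of nuclei and organelles in fibres divided between rises and falls. Dnase2b, the nuclease that degrades fibre DNA, rose from 3477, 2091 and 2574 to 6053 and 6273, a change of 1.21 ± 0.18. Hsf4, a heat shock transcription factor needed for fibre maturation, fell from 2136, 1906 and 1822 to 1144 and 1055, a change of -0.82 ± 0.14. Neither gene's ages overlapped. Fyco1, an adaptor for autophagosome transport, rose by 1.02, with another probe set moving the opposite way, and Alox15, a lipoxygenase, rose by 1.43, a call lost after spike scaling (0.94). Cdk1, which helps break down the nuclear envelope, fell by 2.92 and is described with the mitosis genes. In all, 4 of 8 tested members rose (50%) and 3 fell (37.5%), against 22.3% and 30.8% of all genes, with 2 rises after spike scaling. Plaat3, a phospholipase that degrades lens organelles, rose by 0.40, a call lost after median centring (0.06) and without E16.5 replicate 2 or E16.5 replicate 3. Its change was 0.24 without PN56 replicate 2, -0.09 after quantile normalization and -0.09 after spike scaling.

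Lens epithelium genes were mixed. The water channel Aqp1 rose from 275, 293 and 217 to 2602 and 2235, and Dapl1, a small protein linked to epithelial differentiation, from 1607, 3022 and 2158 to 29424 and 37133. The adult arrays lay about an order of magnitude above the embryonic ones for both genes. Foxe3, a forkhead factor that keeps the epithelium dividing, fell from 791, 776 and 583 to 336 and 258. The Notch ligand Jag1 (-1.10) and the membrane protein Itm2a (-2.55) fell too. Cdh1, E-cadherin, read 5068, 3679 and 4122 at E16.5 and 3954 and 3322 at PN56, with overlapping ages (-0.23, limma adjusted p = 0.216), but it fell after median centring (-0.57) and spike scaling (-0.72). Of 18 members tested, 8 rose (44.4%) and 5 fell (27.8%), against 22.3% and 30.8% of all genes. After spike scaling 6 rose and 8 fell. The median of 0.12 was below 0 under the 3 other scalings (-0.03, -0.23 and -0.37).

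Transcription factors of lens and placode mostly fell. Of 21 tested, 11 fell and 4 rose, against 30.8% and 22.3% of all genes, with a median of -1.01. Sox1, which fibres need to elongate, went from 9519, 7471 and 9087 to 2405 and 2098, although another Sox1 probe set moved the opposite way. Sox11, a factor of immature cells, fell by 5.08, and Gata3, a factor of fibre differentiation, went from 731, 711 and 662 to 123 and 42.5. Six3, a homeobox gene of the early lens, went from 4729, 5002 and 4407 to 1845 and 1161. Prox1, a homeobox gene of fibre elongation, fell by 0.93 on its brightest probe set, but its 2 other probe sets above the filter moved the opposite way. Pax6, the master gene of eye development, stood at 3681, 5685 and 3353 at E16.5 and 4760 and 4332 at PN56, with overlapping ages and a change of 0.14 ± 0.18 (limma adjusted p = 0.552). Without E16.5 replicate 2, the highest array, Pax6 passed the test at 0.37, and the mean of its probe sets rose by 1.21. Sox2 rose from 1678, 1799 and 1526 to 3066 and 3376. E16.5 and PN56 arrays did not overlap for 17 of the 21 factors, 4 higher and 13 lower at PN56, where 31.3% and 39.2% of all genes lay apart in these directions. Several of these factors are also made in retina, and retinal neuron and progenitor markers summed to 6893 to 20040 at E16.5 and 2422 and 2700 at PN56, a part that was not tested.

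Klf4 belongs to a family of factors that bind CACCC sites, and its relatives changed in both directions. Of 13 Kruppel-like factor genes, 4 rose, 4 fell and 5 did not pass, against 22.3% and 30.8% of all genes. Klf9, a hormone-responsive member, went from 481, 505 and 404 to 1550 and 710, a call lost over the mean of its probe sets (0.62). Klf15, a metabolic regulator, went from 129, 131 and 55.8 to 332 and 222, a call lost after median centring (0.98) or spike scaling (0.83) and without E16.5 replicate 3 or PN56 replicate 1. Klf5, an epithelial member, rose by 1.12, a call lost after median centring (0.78) or spike scaling (0.63) and without any one of 4 of the 5 arrays. Klf7 fell from 1537, 1359 and 1662 to 403 and 425, and Klf2, an endothelial member, from 427, 253 and 426 to 137 and 87.6. After median centring or spike scaling 1 member rose and 7 fell. The 4 rises became 1 without PN56 replicate 1 and 2 without any other one of the 5 arrays.

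All 24 tested genes of mitosis fell, under each scaling and with each array left out, with a median of -2.61. Mki67, the Ki-67 proliferation marker, went from 740, 1129 and 878 to 70.7 and 73.6, a change of -3.38 ± 0.27 (limma adjusted p = 5.93e-07). Top2a, the topoisomerase of dividing cells, went from 1876, 2920 and 2103 to 267 and 241. Bub1, a spindle checkpoint kinase, went from 662, 886 and 649 to 26.6 and 47.2, and Cdk1, the mitotic kinase, from 1565, 2066 and 1660 to 206 and 229. E16.5 replicate 2 was the highest of the embryonic arrays for each of these 4 genes, and both adult arrays were far below. That array also had the highest summed signal of retinal neuron and progenitor markers (20040, against 6893 and 12248), whose part in these values was not tested. Ube2c, of the mitotic ubiquitin ligase pathway, fell most (-4.57) and Bub1b, a checkpoint kinase, least (-1.63, with 1 of its 2 other probe sets opposed). In whole lens, fewer cells of a type and less RNA per cell cannot be told apart.

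DNA replication genes fell in 17 of 24, rose in 1 and had a median of -1.45. Mcm2, part of the replicative helicase, went from 1463, 2059 and 1376 to 298 and 233, and Mcm5 from 1491, 2161 and 1712 to 169 and 234. Rrm2, the ribonucleotide reductase subunit, fell by 2.69, and Uhrf1, which keeps DNA methylation through replication, fell by 4.64. Pcna, the sliding clamp, fell only from 6631, 8341 and 6648 to 4506 and 4664, a change of -0.64 ± 0.12. The 1 rise was that of Prim1, a primase subunit, from 710, 1021 and 759 to 1342 and 1270 (0.66), and it was not called after median centring or spike scaling.

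Among regulators of G1 and of cell cycle exit, 17 of 22 fell and 3 rose, with 11 falls over the means of probe sets. Cdkn1c, which encodes p57, the inhibitor that marks fibre cells leaving the cycle, fell from 25585, 24904 and 23139 to 6196 and 4656, a change of -2.19 ± 0.11. Cdkn1b, p27, fell by 1.53 on its brightest probe set and moved the opposite way on another. Cdkn2c, p18, rose from 584, 792 and 669 to 3341 and 4136, and Cdkn2b, p15, rose by 3.96. Cyclin-dependent kinase inhibitors therefore moved in both directions. Cyclin D1 (Ccnd1) stood at 8283, 12352 and 9610 at E16.5 and 8233 and 9767 at PN56, with overlapping ages (-0.15, limma adjusted p = 0.531), but it fell after median centring (-0.49) and spike scaling (-0.64). Ccnd3 fell from 3888, 3250 and 3258 to 1110 and 1012. The growth regulators Mycn (-1.80) and Myc (-3.18) and E2f1, a driver of the S phase (-2.23), fell.

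Imprinted growth genes mostly fell. Igf2, the imprinted fetal growth factor, went from 11571, 9103 and 9771 to 250 and 287, a change of -5.16 ± 0.49 (limma adjusted p = 3.11e-06). Grb10, an imprinted brake on insulin signalling, went from 5227, 6872 and 5187 to 183 and 190. Peg3 fell from 4745, 5463 and 5249 to 1222 and 1232, and Mest from 8677, 9128 and 8636 to 2053 and 2422. The falls held on both adult arrays, and both paternally expressed genes (Igf2, Peg3, Mest) and maternally expressed ones (Grb10, Cdkn1c, Meg3 at -3.38 on its brightest probe set, with 2 of 10 others opposed) were among them. Of 16 imprinted genes tested, 11 fell and 2 rose. The rises were Sgce, epsilon-sarcoglycan, from 307, 344 and 298 to 2839 and 3007, and Gnas, by 0.79, which was not called after quantile normalization or spike scaling.

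The 6 tested genes of the let-7 pathway and of embryonic RNA binding all fell, with a median of -3.59. Let-7 microRNAs silence growth genes as tissues mature, and Lin28 proteins block their processing. Lin28b went from 115, 82.8 and 174 to 1.8 and 1.2. Igf2bp1 went from 1193, 1379 and 1434 to 41 and 74.1, and Igf2bp3 from 1877, 1965 and 1685 to 68 and 88.8. Both encode fetal RNA-binding proteins and were near background on the adult arrays, as was Hmga2. Chromatin genes fell in 10 of 12. Hmgb2 went from 3338, 5162 and 3232 to 186 and 122, the DNA methyltransferase Dnmt3a from 2522, 2331 and 2506 to 716 and 560, and Lmnb1, lamin B1, fell by 2.84. Lmna, which encodes the lamins A and C of differentiated cells, was the member that rose (1.49), but the mean of its probe sets, 0.55, was not called.

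**Figure D3:**
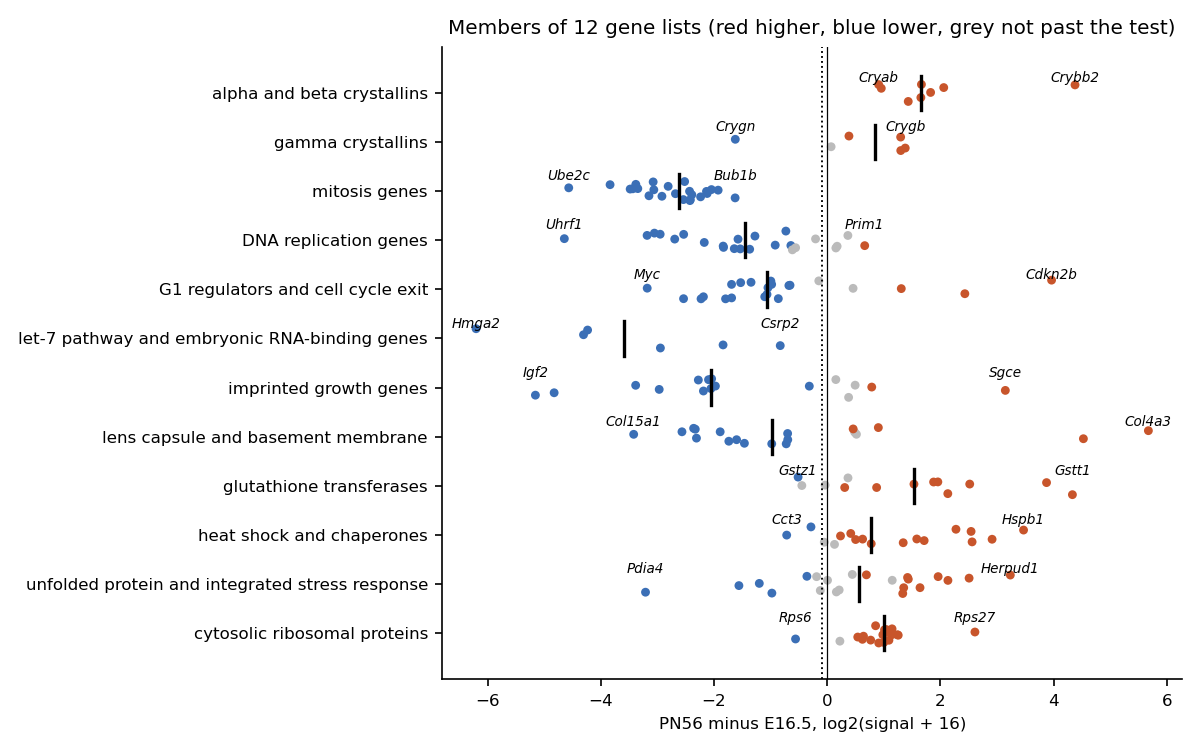
Change with age (PN56 minus E16.5, log2(signal + 16)) of each tested member of 12 gene lists, 1 point per gene, with the list median as a bar and the median of all tested genes as a dotted line; height within a list is jitter. All 24 mitosis genes lie to the left of 0, all 8 alpha and beta crystallins to the right (Cryab and Cryba4 turn after quantile normalization), and the basement membrane list holds 2 genes far to the right, Col4a3 and Col4a4.

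The lens capsule is rich in type IV collagen, laminin, nidogen and perlecan. Of 19 basement membrane genes, 13 fell and 4 rose, but the collagen IV genes split by pair. Col4a3 rose from 53.8, 33.7 and 52.4 to 3186 and 3098, and Col4a4 from 180, 243 and 186 to 5912 and 4195, changes of 5.67 ± 0.29 and 4.53 ± 0.26. Col4a1 fell from 24663, 23841 and 25140 to 17040 and 12933, although its other probe set moved the opposite way, and Col4a2 from 14880, 12441 and 14857 to 8715 and 5774. Col4a5 fell from 17142, 16308 and 14215 to 6051 and 5433, and Col4a6 from 2848, 2480 and 2686 to 534 and 481. Thus Col4a3 was near background and Col4a4 low at E16.5 and both were far higher at PN56, and the other 4 chains were present at both ages and lower at PN56. In GRCm38.p6 these genes lie in 3 head-to-head pairs: Col4a1 and Col4a2 on chromosome 8 overlap by 85 bases, Col4a4 and Col4a3 on chromosome 1 overlap by 114 bases, and Col4a6 and Col4a5 on chromosome X are 1274 bases apart. Both members of each pair moved the same way on their brightest probe sets. The laminin genes Lama1, Lama4, Lamb1 and Lamc1 fell, Lamb1 from 4202, 3880 and 4345 to 875 and 750, and Lama5 and Lamb2 did not pass. The other Lamc1 probe set moved the opposite way and the mean of its probe sets, -0.05, was not called, while Lama5 (0.48) rose after quantile normalization (0.59), with the Klf4CN arrays alone and with the sample number as a block (0.65). Vessel cells also make such proteins, and the part of the endothelial decrease in these falls was not tested.

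Other matrix genes were grouped into fibrillar collagens and proteoglycans. Among 16 fibrillar collagen and related genes 5 fell (31.2%, against 30.8% of all genes), 1 rose and 10 did not pass, with 9 falls after median centring and 11 after spike scaling. Col3a1, a fibrillar collagen, went from 734, 658 and 706 to 36.3 and 109, and Loxl1, which crosslinks elastin, fell by 1.57. Of 11 small leucine-rich proteoglycans, which bind collagen fibrils, 4 were under the brightness filter. Of the 7 tested, 4 rose (57.1%) and none fell, against 22.3% and 30.8% of all genes. After median centring 4 rose and 1 fell, and after spike scaling 3 rose and 1 fell. The filter used the mean of all 10 arrays, so a gene dim at E16.5, such as Fmod, could enter the test mainly by being high at PN56. The count of rises therefore depends in part on the filter. Fmod rose from 18.4, 42.8 and 1.9 to 1622 and 1515, and its 5 other probe sets above the filter moved the same way. Prelp rose from 77.7, 79.5 and 59.6 to 908 and 860. Decorin (Dcn) and lumican (Lum), at changes of 0.39 and -0.90, did not pass the test.

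Water and ion transport genes included several large rises. Atp1b1, the beta 1 subunit of the sodium pump, rose from 383, 491 and 295 to 4635 and 10070, a change of 4.11 ± 0.29. The 2 adult arrays differed from each other by more than 2-fold for this gene, yet both were far above the embryonic ones. Atp1b3 rose from 8455, 8573 and 7302 to 28499 and 29118, and Slc12a2, a sodium, potassium and chloride cotransporter, by 1.06. Of 12 tested pump and cotransporter genes 5 rose (41.7%) and 2 fell (16.7%), against 22.3% and 30.8% of all genes. In the aquaporin and connexin list 5 of 9 rose and 1 fell (3 and 3 after spike scaling), and its median of 0.77 became -0.13 after quantile normalization. Aqp4 (1.84) and Aqp11 (1.19, not called after spike scaling) rose in addition to Aqp1 and Aqp5.

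Nutrient transporters fell more often than they rose, 9 (47.4%) against 3 (15.8%) of 19, as did all genes (30.8% and 22.3%). After spike scaling 14 fell. Slc7a5, which imports large neutral amino acids, went from 14793, 11588 and 14232 to 1680 and 1061, a change of -3.32 ± 0.18. Slc2a1, the glucose transporter of lens epithelium and fibres, fell from 21550, 19731 and 20913 to 10900 and 12950. Slc16a12, a monocarboxylate transporter (-2.19), and Slc7a1, a cationic amino acid transporter (-2.04), fell as well. Rises were found in the importers of osmolytes. Slc5a3, for myo-inositol, went from 604, 720 and 723 to 4706 and 4364, and Slc6a6, for taurine, rose by 2.24. The cystine transporter Slc7a11 also rose (1.87), a call that was lost without E16.5 replicate 1 or either PN56 array.

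Glutathione transferase genes rose in 9 of 13, with 1 fall, lost without E16.5 replicate 2 or PN56 replicate 1, and a median of 1.53. These enzymes join glutathione to reactive compounds. Mgst1, a microsomal form, went from 1010, 1555 and 620 to 14330 and 15225, a change of 3.87 ± 0.29. Gsta4, which acts on lipid aldehydes, went from 634, 765 and 394 to 3117 and 3661, and Gstm1 from 4665, 4631 and 4753 to 17549 and 18862. Neither E16.5 nor PN56 arrays came near the other age in these genes. Gstt1 rose by 4.33 from a level near background. Gstp1 rose by 0.87 but read -0.004 after quantile normalization. Genes of glutathione synthesis and peroxide removal were mixed, with 9 rises (42.9%) and 6 falls (28.6%) among 21. Over all genes 22.3% rose and 30.8% fell. The list counts were 9 and 8 after quantile normalization, 7 and 10 after median centring and 7 and 11 after spike scaling. Gclc and Gclm, the subunits of the first enzyme of glutathione synthesis, rose by 0.69 and 1.05, but Gclc was not called after median centring (0.35) or spike scaling (0.20). Gpx3, an extracellular peroxidase, rose from 694, 786 and 857 to 4787 and 5372, while Gpx1, the main intracellular one, fell from 21540, 20662 and 20380 to 12632 and 12593. Hmox1, heme oxygenase, rose from 8099, 5513 and 6957 to 27017 and 30210.

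Chaperone genes rose in 13 of 17 and fell in 2, with 8 to 10 rises under the other scalings. Hspb1, the small heat shock protein HSP27, went from 7812, 5428 and 8002 to 78218 and 76437, a change of 3.47 ± 0.14 (limma adjusted p = 4.45e-09). Dnajb1, an HSP40 cochaperone, went from 5982, 5013 and 5453 to 30607 and 33236. Hspa1b, an inducible HSP70, went from 215, 538 and 285 to 2488 and 2566. In each the adult arrays lay close together and well above the embryonic ones. The 2 falls were those of Hspd1, the mitochondrial HSP60 (-0.29), which lost its call without E16.5 replicate 2 or either PN56 array, and Cct3, a subunit of the TRiC chaperonin (-0.72, with 1 of 4 other probe sets opposed). The TRiC genes Cct2 (0.50), Cct5 (0.78) and Tcp1 (0.41) rose with the deposited scaling. Cct2 was not called under the 3 other scalings (0.13, 0.16 and 0.01) or over the mean of its probe sets (0.13), Cct5 was not called after spike scaling, and Tcp1 read -0.10 after quantile normalization and -0.07 after spike scaling.

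Stress-response genes of the endoplasmic reticulum rose in 10 of 22 (45.5%) and fell in 5 (22.7%), against 22.3% and 30.8% of all genes. The counts were 11 and 6 after quantile normalization, 9 and 8 after median centring and 8 and 8 after spike scaling. Herpud1, which helps degrade misfolded proteins, went from 904, 961 and 906 to 9354 and 8311, a change of 3.23 ± 0.11. Ddit3, the transcription factor CHOP, went from 312, 250 and 291 to 1625 and 1741, and Dnajb9 from 2266, 2215 and 2080 to 7968 and 9160. Pdia4, a protein disulfide isomerase of the same compartment, went the other way, from 2380, 2974 and 1996 to 268 and 227. Hspa5, the chaperone BiP, stood at 11093, 11982 and 10719 at E16.5 and 12514 and 13560 at PN56, and its change of 0.21 ± 0.10 did not pass the test (limma adjusted p = 0.0829). The list therefore holds strong changes of opposite sign around an unresolved BiP.

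Autophagy and lysosome genes rose in 9 of 19 (47.4%) and fell in 5 (26.3%), against 22.3% and 30.8% of all genes. The list median of 0.11 turned to -0.24 after centring (6 rises and 8 falls) and -0.38 after spike scaling (5 and 9). Without E16.5 replicate 1 the list had 3 falls. Sqstm1, the autophagy receptor p62, went from 2706, 2570 and 2557 to 20157 and 20912, a change of 2.97 ± 0.08. Ctsl, the lysosomal protease cathepsin L, went from 5568, 5028 and 4541 to 35332 and 34575. Both rises were large beside the spread of either age. Gabarapl1, which coats autophagosomes, rose by 1.55, and Becn1, which starts their formation, fell by 0.87 on a probe set that 3 others of the gene contradict. Among 18 p53 target genes 9 rose (50%) and 4 fell (22.2%), beside the same shares of all genes. The counts were 7 and 5 after median centring and 6 and 6 after spike scaling. Perp, a desmosomal protein, rose from 765, 854 and 960 to 9182 and 9225, and Ccng1, cyclin G1, from 7013, 6601 and 9461 to 41804 and 39270. Cdkn1a, p21, read 1040, 1115 and 1613 at E16.5 and 1816 and 1585 at PN56, with overlapping ages and no call (0.46, limma adjusted p = 0.0981) unless E16.5 replicate 3 was left out (0.65).

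Energy genes showed no common direction, where 22.3% of all tested genes rose and 30.8% fell. Among 14 glycolysis genes 6 rose (42.9%) and 5 fell (35.7%). Rises and falls were 6 and 4 after quantile normalization, 5 and 6 after median centring and 2 and 7 after spike scaling. Aldoc, an aldolase, rose from 5158, 4714 and 5552 to 41214 and 41582, a change of 3.01 ± 0.11. Of the phosphofructokinase genes Pfkm rose by 0.88 (not called after spike scaling, 0.39), Pfkp rose from 104, 187 and 304 to 1664 and 1206 and Pfkl fell from 6019, 5736 and 6140 to 1791 and 1246, so the isoforms moved in opposite directions. Ldha fell by 0.77. Hypoxia genes split in the same way, 6 up (37.5%) and 5 down (31.2%) of 16. Their counts were 4 and 6 after median centring and 3 and 6 after spike scaling. Ndrg1 changed by 2.14 and the angiogenic factor Vegfa by -1.07 (its other probe set opposed). Hif3a, an inhibitory hypoxia factor, read 618, 626 and 482 at E16.5 and 6.8 and 8 at PN56 on its brightest probe set, and 1 of 2 others moved the opposite way. Respiratory chain genes rose in 8 (32%) and fell in 8 (32%) of 25. These genes gave 3 rises and 11 falls after quantile normalization, 3 and 10 after median centring and 2 and 10 after spike scaling. Their median of 0.18 was below 0 under the 3 other scalings, and without PN56 replicate 2 only 5 rose. Cox4i1, of complex IV, rose by 1.34, while the complex III genes Uqcrc1, Uqcrc2 and Uqcrfs1 fell (-1.09, -0.83 and -0.69).

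Ribosomal protein genes rose in 17 of 19 (89.5%, against 22.3% of all genes), with a median of 1.0, but this shift is close to that of the cre spikes. Rplp0, for example, read 32885, 35209 and 30303 at E16.5 and 75706 and 80600 at PN56, but was not called after quantile normalization (0.20). After quantile normalization 7 rose and 3 fell, with a median of 0.20, and after spike scaling 13 rose and 1 fell. Rps6 was the one called fall (-0.56), and the mean of its probe sets, -0.43, was not called. Proteasome genes fell in 10 (45.5%) and rose in 7 (31.8%) of 22, against 30.8% and 22.3% of all genes. Fewer of them fell when PN56 replicate 1 was left out. Rises and falls were 4 and 13 after quantile normalization, 3 and 13 after median centring and 1 and 15 after spike scaling. Psmb2 went from 6136, 6302 and 5716 to 1778 and 1917, and Psmd4, a ubiquitin receptor, from 6211, 5951 and 5249 to 14517 and 15984, with 1 of 2 other Psmd4 probe sets opposed. Sterol synthesis genes rose in 9 of 17 (52.9%) and fell in 1 (5.88%), with 5 and 3 after median centring and 5 and 4 after spike scaling. Fdft1, squalene synthase, rose from 4347, 4446 and 4493 to 8997 and 10028, whereas Hmgcs1, an early enzyme of the pathway, fell by 0.49, with 2 other probe sets moving the opposite way.

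**Figure D4:**
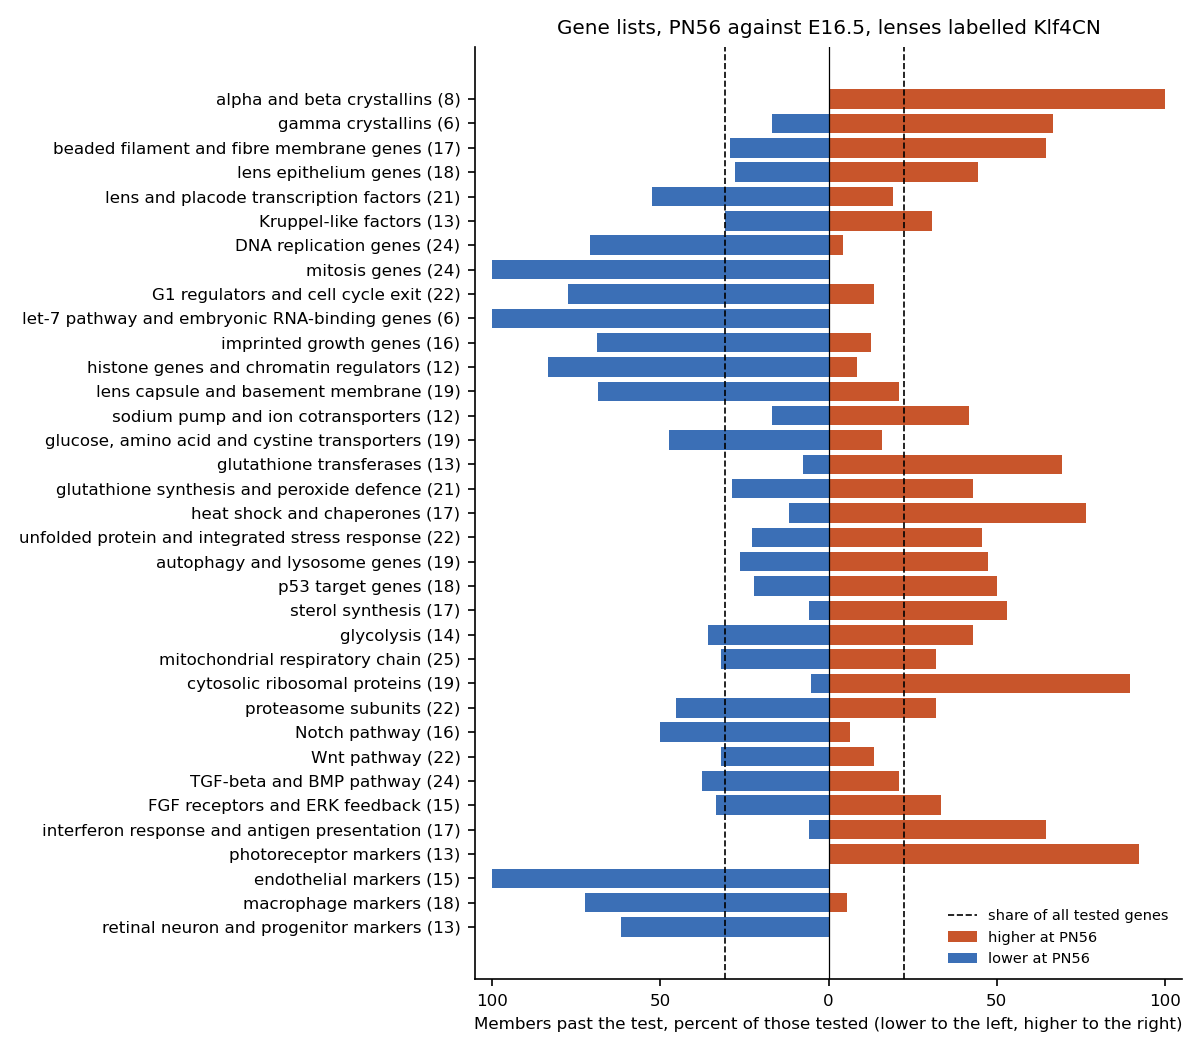
Share of tested members that rose (right) or fell (left) at PN56 in 35 gene lists, in percent of tested members, whose number stands in brackets; dashed lines mark the shares over all tested genes, 22.3% and 30.8%. Mitosis, endothelial and let-7 pathway genes fell throughout, alpha and beta crystallins rose throughout (6 of 8 after quantile normalization), and Kruppel-like factors lay near the dashed lines.

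Signalling genes were examined by pathway, from ligand to target. FGF signalling drives fibre differentiation, and 5 of its 15 tested genes rose (33.3%) and 5 fell (33.3%), against 22.3% and 30.8% of all genes. The counts were 2 and 7 after median centring and 2 and 8 after spike scaling. The ligand Fgf1 rose from 111, 56.3 and 55.8 to 803 and 528, and the receptor Fgfr2 from 926, 763 and 814 to 2659 and 2043. The feedback phosphatase Dusp6 fell from 2730, 2764 and 3214 to 578 and 485, and the inhibitor Spry4 from 222, 195 and 300 to 31.5 and 90.1, though the mean of the Spry4 probe sets, -0.53, was not called. Feedback genes moved both ways. Dusp4, Spred2 and Spred3 fell and Spry2 and Spred1 rose with the deposited scaling, and none of these calls held under all alternatives. Over the mean of each gene's probe sets Spry2 read -0.72, Spred1 -0.05 and Spred2 0.13. After spike scaling Spry2 read -0.018 and Spred1 was not called (0.05), and neither was called after median centring. Calls were lost for Spred3 (-1.40) without any one of the 3 embryonic arrays or PN56 replicate 2 (-0.61), for Dusp4 without E16.5 replicate 2 or 3 or PN56 replicate 1, and for Spred1 without E16.5 replicate 1 or 2 or PN56 replicate 1. Without E16.5 replicate 1 or PN56 replicate 1 the pathway had 3 rises, and without E16.5 replicate 2 or 3 it had 3 falls. In the TGF-beta and BMP pathway 5 of 24 rose (20.8%) and 9 fell (37.5%), against 22.3% and 30.8% of all genes, with counts of 4 and 12 after median centring and 4 and 15 after spike scaling, and 5 falls over the means of probe sets. The ligands Tgfb3 (148, 179 and 196 at E16.5 and 2376 and 1804 at PN56) and Tgfb1 (339, 264 and 392 at E16.5 and 977 and 1051 at PN56) rose. Tgfbr1, a receptor, fell by 1.70, against 2 other probe sets of the opposite sign, and the BMP targets Id1 and Id3 fell (-1.09 and -0.84). Tgfbi, a TGF-beta induced matrix protein, rose by 2.08.

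Notch pathway genes fell in 8 of 16 (50%) and rose in 1 (6.25%), against 30.8% and 22.3% of all genes. After spike scaling there were 12 falls and no rise. The receptor Notch3 went from 1297, 1059 and 1130 to 135 and 215, and the target Nrarp from 1435, 1293 and 1522 to 167 and 208. The ligand Jag1 went from 13824, 12433 and 14881 to 6564 and 6172, and the target Hes1 from 1093, 1181 and 955 to 455 and 537. The receptor Notch1 and the targets Hes5 (not without PN56 replicate 1) and Heyl fell as well, and the 1 rise was that of Notch2 (0.91), which was not called after spike scaling. Wnt pathway genes fell in 7 of 22 (31.8%), near the share over all genes, and rose in 3 (13.6%), below it. After spike scaling 12 fell. The antagonist Sfrp2 fell from 772, 2168 and 558 to 54 and 46.9, and the ligand Wnt7a rose from 1794, 1517 and 1926 to 5067 and 3765, but the mean of the Wnt7a probe sets, 0.24, was not called. Immediate early genes divided, 2 up and 2 down of 11 (18.2% each, against 22.3% and 30.8% of all genes). The counts were 1 and 4 after median centring and 1 and 5 after spike scaling. Fos rose from 114, 128 and 107 to 458 and 471, and Jun fell from 1670, 1491 and 1667 to 330 and 380. Without E16.5 replicate 2 or PN56 replicate 1, 1 of the 11 rose.

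Acta2, which encodes alpha smooth muscle actin, rose from 1401, 1370 and 1532 to 16490 and 18787, a change of 3.60 ± 0.12 (limma adjusted p = 9e-10). This was one of 2 rises among 9 contractile genes, 22.2% against 22.3% of all genes. Tagln, a common companion of Acta2 in smooth muscle, stood at 49.2, 89.1 and 78 at E16.5 and 115 and 87.8 at PN56, with overlapping ages and a change of 0.43 ± 0.47. Tpm1 rose by 1.25 and Tpm2, another tropomyosin, fell by 1.73. The smooth muscle genes Cnn1, Myh11 and Lmod1 were under the brightness filter. Interferon and antigen presentation genes rose in 11 of 17 and fell in 1, with 7 rises after spike scaling, and the fall was lost without E16.5 replicate 2, E16.5 replicate 3 or PN56 replicate 1 or any one of the 3 wild-type E16.5 arrays. H2-Aa, a class II antigen chain, went from 14.2, 29.8 and 43.8 to 949 and 362, and Ifi27 from 211, 169 and 229 to 1041 and 1033. Macrophage markers, given next, mostly fell.

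Markers of cells around the lens changed with age, and their part in the results above was not tested. Defining lens genes (Cryaa, Mip, Bfsp1, Bfsp2, Lim2, Foxe3, Pax6) were present on all 5 arrays. Among the 15 endothelial markers, Cdh5, VE-cadherin, went from 1036, 722 and 1355 to 31 and 146, and Tie1, an endothelial receptor kinase, from 297, 248 and 359 to 2.2 and 3.2. At PN56 the markers Pecam1, Tie1, Cldn5, Emcn and Sox17 were under 100 on both arrays. Macrophage markers fell in 13 of 18 and rose in 1, from sums of 12859 to 16337 down to 6902 and 3459, with Mrc1, the mannose receptor, going from 1310, 885 and 1353 to 174 and 145. The rise was that of Cd14 and was not called without PN56 replicate 1 or after spike scaling. Cd68 stood at 251, 185 and 302 at E16.5 and 269 and 230 at PN56 and did not pass the test.

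Blood genes fell as well. Hbb-b2, an adult beta globin, went from 1846, 825 and 1526 to 14.3 and 7, and Alas2, the erythroid heme enzyme, from 2038, 1375 and 1800 to 4.2 and 95.6. Of 7 tested members of the erythroid list 5 fell, with a median of -4.22. Its 2 rises were Car2, a carbonic anhydrase that other cells also make (1291, 1071 and 1396 at E16.5 and 11757 and 10615 at PN56), and Hbb-bh1, an embryonic globin that stayed low (17.5, 8.3 and 17 at E16.5 and 108 and 178 at PN56). E16.5 replicate 2 had the lowest erythroid and endothelial sums of its age.

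Photoreceptor genes rose in 12 of 13 tested (92.3%, against 22.3% of all genes), from summed signals of 568 to 762 at E16.5 to 17825 and 5740 at PN56. The filter used the mean of all 10 arrays, so a marker near background at E16.5 could enter the test mainly by being high at PN56. The count of rises is therefore partly fixed by the filter. Gnat1 went from 4.5, 3.7 and 9 to 4902 and 1213, Sag, rod arrestin, rose by 4.51 to 3180 and 973, and Rcvrn, recoverin, from 11.3, 6.4 and 9.7 to 1223 and 396. PN56 replicate 1 stood about 3 times above replicate 2 in the sum and was the higher in each of these genes. Of the 14 measured markers, 12 were under 100 on all E16.5 arrays, and Prph2 stayed under 100 at PN56. Without PN56 replicate 1, Gnat1 and the other named photoreceptor genes kept their direction. Retinal neuron and progenitor genes went the other way, with 8 falls and no rise among 13. Atoh7, a factor of retinal ganglion cell precursors, went from 1741, 5792 and 2034 to 95.2 and 29.6, and Elavl4, a neuronal RNA-binding protein, from 593, 1025 and 767 to 56.1 and 102. E16.5 replicate 2 was the highest array for both genes, as for the sum of the list.

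Pigment cell markers showed 2 rises (28.6%) and 1 fall (14.3%) among 7, against 22.3% and 30.8% of all genes. Pmel went from 2398, 3280 and 1078 to 446 and 576. E16.5 replicate 3 had the lowest sum of this list, 3528, against 6835 and 9361 on the other embryonic arrays and 5809 and 5720 at PN56. Corneal and surface epithelium markers were dim, with 5 of 10 under the filter, and of the 5 tested 2 rose and 2 fell. The sums of all 10 were 394, 796 and 844 at E16.5 and 1220 and 1456 at PN56. Krt12, Krt14, Trp63, Sprr1b and Aqp3 were under 100 on every array of both ages. Krt15 and Krt19, keratins of several simple and basal epithelia, rose from 4.1, 74.9 and 39.5 to 336 and 378 and from 37, 86.4 and 125 to 677 and 575. Mesenchyme and fibroblast markers rose in 4 (30.8%) and fell in 2 (15.4%) of 13, and in 2 and 4 after spike scaling. These markers included Prrx1, which went from 75.7, 81.4 and 71.6 to 695 and 608. Their sums were 6241 to 6989 at E16.5 and 10678 and 10300 at PN56.

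**Figure D5:**
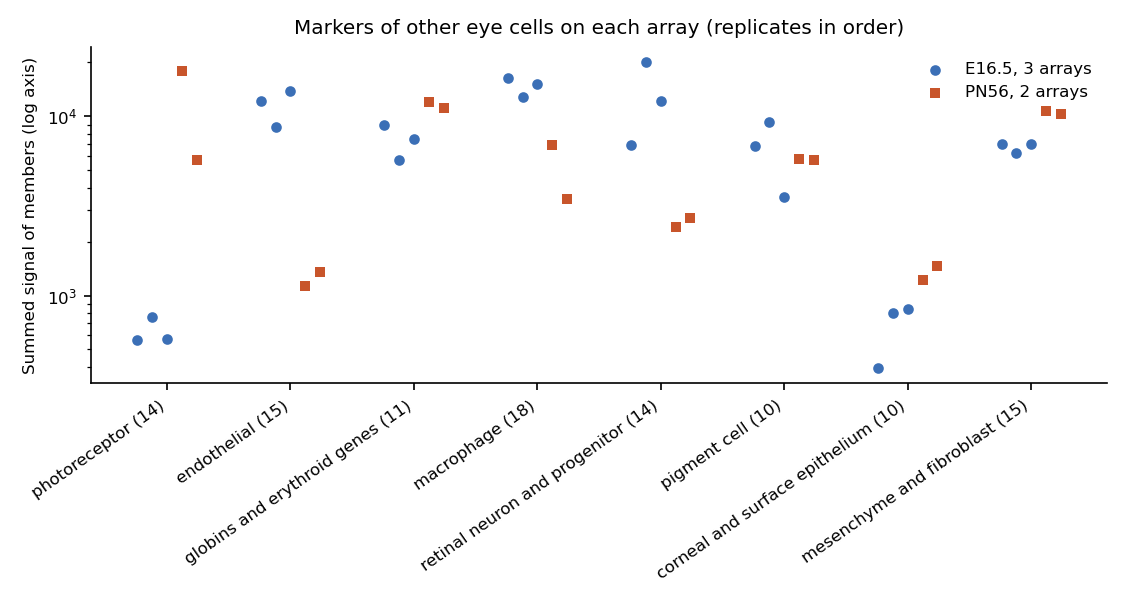
Summed signal (log axis) of the measured members of 8 marker lists on each array, E16.5 as circles and PN56 as squares, replicates from left to right, with the number of members in brackets. Endothelial, macrophage and retinal neuron sums are lower at PN56, the photoreceptor sum is higher and differs about 3-fold between the 2 PN56 arrays, and the erythroid sum at PN56 is mostly that of Car2.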

How the data were processed

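Total RNA of whole lens was hybridised to 10 Affymetrix mouse expression arrays, of which 5 are labelled Klf4CN. The values the authors deposited are linear intensity signals, made with GCOS 1.4 per the submitters' processing notes, and their trimmed mean is 500 on every array. Of 45101 probe sets, 34945 had a single gene symbol in the platform annotation, 932 had several and 9160 had none, and 34741 of the 34945 matched RefSeq (GRCm38.p6). Control probe sets were left out. Each gene was read by its brightest probe set, by mean signal over all 10 arrays. It was tested if that mean reached 54.1, the 40th percentile of all probe sets. log2(signal + 16) was fitted in limma 3.58.1 (R 4.3.3) with 4 group means over all 10 arrays, a trended prior and Benjamini-Hochberg adjustment (two-sided), after a check on simulated data. The members and gene lists were chosen with earlier results of these data known. Named genes are Klf4, the 12 largest rises and 12 largest falls whose ages do not overlap, and from each list the first 3 measured genes and up to 5 of smallest p. Other genes were named after their values were seen. The sample numbers are not known to pair the arrays. Correlations of deviations ran from -0.0262 to 0.0262, but with 2 PN56 arrays each value recurs with the opposite sign, so they cannot decide on pairing. Alternatives covered scaling, offset, filter, probe sets, variance model, arrays and thresholds, and spike scaling was added after seeing the data.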

Additional observations from a re-analysis of the deposited data

How the results depend on the processing

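Counts of called genes (7140, with 3003 higher and 4137 lower at PN56) stayed within 1.5 times under most alternatives, and these did not. Every probe set tested by itself gave 11739 calls, 5592 of them higher. Median centring gave 1745 higher, and spike scaling, chosen after seeing the data, gave 1381 higher and 6334 lower. A log2 change of at least 1 in addition left 3886 calls, 1656 higher and 2230 lower. The mean of each gene's probe sets stayed within 1.5 times but turned the balance, with 5874 calls, 3038 higher and 2836 lower. Leaving out one array at a time gave 5960 to 7409 calls, 2488 to 3090 higher and 3472 to 4319 lower. Klf4 ran from -0.74 to -0.37 without one array, and passed the test at -0.89 after median centring and -1.04 after spike scaling. With the sample number as a replicate block there were 6826 calls, 2863 higher and 3963 lower, and Klf4 read -0.71. Deviations of same-numbered arrays did not correlate, which with 2 PN56 arrays cannot decide on pairing, and the numbers are not known to pair the arrays.

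Of 242 genes followed, 242 kept their direction and their side of the threshold with offsets of 1 and 64, and 226 did after quantile normalization, 228 after median centring, 218 after spike scaling and 216 when probe sets of a gene were averaged. Directions turned after quantile normalization for Cryab (-0.21), Cryba4 (-0.15), Cryga (-0.28), Gstp1 (-0.004), Mip (-0.14), Plaat3 (-0.091) and Tcp1 (-0.10). After spike scaling they turned for Cryga (-0.10), Plaat3 (-0.087), Spry2 (-0.018) and Tcp1 (-0.074). With the mean of probe sets they turned for Hmgcs1 (0.16), Prox1 (0.60), Spred1 (-0.049), Spred2 (0.13), Spry2 (-0.72) and Tgfbr1 (0.074). The cause was not tested. Sizes of genes near or below the offset at E16.5 or PN56 move with it, as Aldh3a1 did (6.39 with an offset of 64 and 10.17 with 1).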
